A study of Mus musculus with 9 samples.

Results

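The purine and pyrimidine salvage enzymes recycle nucleosides and bases that are released when RNA and nucleotides are broken down. The 10 genes described here, Gmpr, Gmpr2, Ampd3, Cda, Nt5c3, Ada, Pnp, Hprt, Adk and Uck2, were taken as every array probe whose RefSeq accession maps to one of these symbols. This gave 12 probes, and all 10 genes were among the 14504 named genes that were tested. The members were chosen by enzymatic role with the log2 fold changes between the 3 groups on these same arrays known, so that the levels and changes of the members are descriptions and not independent evidence for the list. Expression was measured on 9 single-colour arrays of erythroblasts, the nucleated precursors of red cells, sorted as subset II from bone marrow. The mice were wild-type C57BL/6J animals, all labelled female. The 3 groups of 3 arrays were 7 weeks of low iron diet after weaning (LID_W_7w), 3 weeks of low iron diet after weaning (LID_W_3w) and normal diet (ND). The low iron diet is a nutritional model of iron deficiency anemia. Since the diet began after weaning, time on the diet and age cannot be told apart. The age of the ND mice, and whether a sample came from 1 animal or a pool, are not given in the sources used here. Each comparison with ND asks which genes differ in these cells after that time on the diet.

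Maturing red cells lose their nucleus and mitochondria and depend on salvage for their nucleotides. Purines are recaptured by Hprt, which turns hypoxanthine and guanine into IMP and GMP, and by Adk, which turns adenosine into AMP. GMP reductases (Gmpr, Gmpr2) and AMP deaminase (Ampd3) send purine nucleotides back to IMP, and adenosine deaminase (Ada) and purine nucleoside phosphorylase (Pnp) break nucleosides down. On the pyrimidine side, Nt5c3 removes the phosphate of CMP and UMP, Cda turns cytidine into uridine, and Uck2 phosphorylates uridine and cytidine. In humans, loss of NT5C3A causes a hemolytic anemia with retained pyrimidine nucleotides, and red cell ADA is raised in Diamond-Blackfan anemia.

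The promoter windows of Gmpr and Cda are shown because these genes had the largest changes among the members. Ampd3, which moved the opposite way, is shown at the last of its 3 start sites. Of the Ampd3 windows this one alone held a match of the GATA motif. Adk also fell, and neither of its windows held a match of any motif searched. The sequences are RefSeq's for build GRCm38.p6, run 5′ to 3′ on the gene's strand from 250 bases before to 50 bases after the start, and capitals mark a GATA motif match. The windows are chr13:45507194-45507493 on the plus strand, chr4:138367906-138368205 on the minus strand and chr7:110773386-110773685 on the plus strand.
Gmpr: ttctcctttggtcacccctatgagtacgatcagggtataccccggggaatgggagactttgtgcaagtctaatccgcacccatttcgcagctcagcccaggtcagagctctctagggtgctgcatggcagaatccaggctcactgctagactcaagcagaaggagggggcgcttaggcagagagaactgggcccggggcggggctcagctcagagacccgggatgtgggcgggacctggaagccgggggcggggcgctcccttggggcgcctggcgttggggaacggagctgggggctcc
Cda: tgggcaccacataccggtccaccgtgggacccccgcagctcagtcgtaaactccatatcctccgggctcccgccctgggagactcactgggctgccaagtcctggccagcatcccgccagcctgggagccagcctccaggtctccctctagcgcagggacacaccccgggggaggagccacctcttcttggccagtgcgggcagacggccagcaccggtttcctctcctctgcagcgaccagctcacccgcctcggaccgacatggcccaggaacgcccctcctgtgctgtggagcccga
Ampd3: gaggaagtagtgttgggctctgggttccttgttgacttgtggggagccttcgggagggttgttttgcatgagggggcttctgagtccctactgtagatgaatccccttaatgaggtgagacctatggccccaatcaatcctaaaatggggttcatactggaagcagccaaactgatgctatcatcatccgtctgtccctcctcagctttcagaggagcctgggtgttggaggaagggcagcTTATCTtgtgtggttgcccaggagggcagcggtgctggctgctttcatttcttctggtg
All 10 members matched, with 13 windows. The GATA motif AGATAA, searched on both strands, was in 2 of them, this Ampd3 window and the Hprt window (2 matches), and in 11.2% of all 32851 windows. The motif TTCNNNGAA, bound by STAT factors, was in the Ada window alone of the 13 (8.3% of all windows), ACGTG of the hypoxia response was in another Ampd3 window, where a palindrome matched on both strands (19.6%), and TGATGNAA of the amino acid response was in none (3.97%). Matches of different motifs did not overlap. Neither the Gmpr nor the Cda window held any of them.

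The arrays differed between groups in ways that touch every comparison. The share of spots well above background was 45.15% to 53.57% on LID_W_7w arrays, 56.75% to 70.78% on LID_W_3w arrays and 65.52% to 66.28% on ND arrays. The 75th percentile of the processed signal was 791.7, 826.8 and 1087.5 on LID_W_7w arrays, against 1677.1 to 1836.5 on LID_W_3w and 1498.8 to 1615.8 on ND arrays. The array's spike-in control spots (mean over the E1A probes) lay 5.11, 5.35 and 4.44 log2 units above that percentile on LID_W_7w, 1.57, 1.35 and 1.1 on LID_W_3w and 0.5, 1.74 and 1.0 on ND. The levels below are relative to each array's 75th percentile. Scaled to the spike-ins, each log2 fold change at 7 weeks shifts by -3.89 against ND and by -3.63 against 3 weeks, and the median of all genes at 7 weeks against ND is -4.15. The amount of spike-in added per sample is not given in the sources used here, and its part in this offset was not tested. No slide or scan held arrays of more than 1 group, so that slide, scan and group cannot be told apart. All 10 erythroblast markers checked, among them Hba-a1, Hbb-bt, Tfrc, Klf1, Gata1, Alas2, Epor, Slc4a1 and Ermap, were well above background on every array. By sex-linked genes, ND replicates 1 and 2 stood apart from their label: Eif2s3y, a Y-linked gene, was at log2 levels of 5.12 and 4.82 there, against -3.77 on ND replicate 3. Eif2s3y was well above background on all 3 ND arrays, replicate 3 among them, and not on any low iron array. Ddx3y, also Y-linked, was at 1.9, 0.88 and -7.38 on ND replicates 1, 2 and 3. Changes from ND are therefore also given with ND replicate 3 as the only control, a fit that takes its spread from the low iron groups. In these bulk samples, fewer cells of a type and less RNA per cell cannot be told apart.

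After 7 weeks of low iron diet, Gmpr rose 135-fold and Cda 105-fold relative to ND, Ampd3 and Adk fell, and the other 6 members did not pass. With no scaling between arrays, Hprt also passed, at -1.26. The folds of Gmpr and Cda are set against low ND signals, of 56 to 72 for Gmpr and 59 to 195 for Cda. With another background correction (normexp on the median signal), their log2 fold changes were 5.77 and 5.86. Scaled to the spike-ins, Gmpr (3.19 ± 0.86, adjusted p = 0.00236) and Cda (2.83 ± 0.93, adjusted p = 0.00894) were still higher than ND, and the other 8 members were all lower, from -5.92 for Ampd3 to -3.33 for Nt5c3, as were 14312 of the 14504 genes, while 12 genes were higher. In the linear model (limma, adjusted over all genes), 4 of the 10 members thus changed, 2 higher and 2 lower, against 29.5% of all genes tested (10.7% higher and 18.7% lower). The median log2 fold change of the members was 0.02, beside -0.27 for all genes. The groups of 3 arrays did not overlap for 5 of the 10 members, against 47.4% of all genes. By size of change, Gmpr was the 6th and Cda the 7th of the 14504 genes. With ND replicate 3 as the only control, none of the 4 passed: Gmpr was at 7.05 (adjusted p = 0.0746), Cda at 6.59 (adjusted p = 0.0815), Ampd3 at -2.35 (adjusted p = 0.0878) and Adk at -1.44 (adjusted p = 0.212). In that fit, 0 of the 10 members passed, beside 1 of all genes (0.00689%).

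**Figure D1:**
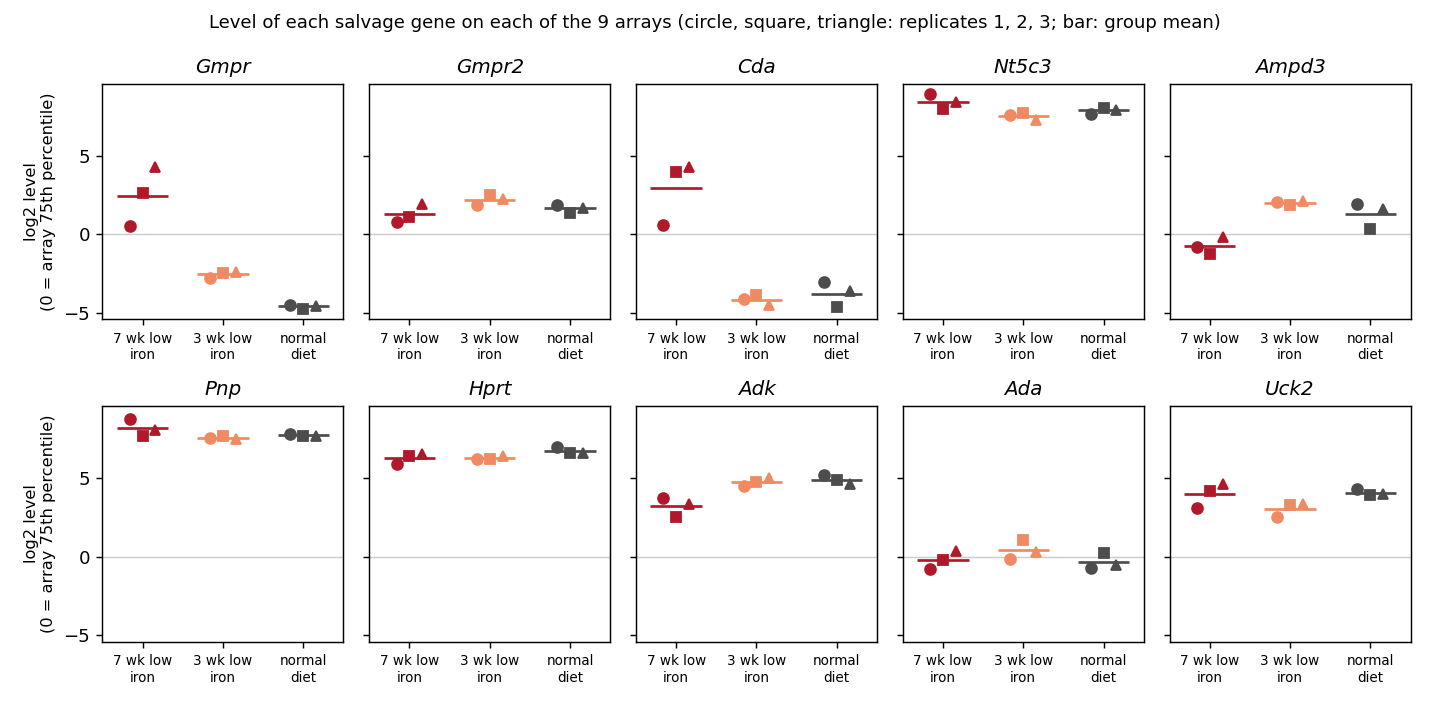
Log2 level of each salvage gene on each array, with 0 at the array's 75th percentile (y axis), by group (x axis); symbols are replicates 1 to 3 and bars are group means. Gmpr and Cda are above 0 on all 3 LID_W_7w arrays and below 0 on every LID_W_3w and ND array; heights of different genes come from different probes and are not to be set against each other.

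Gmpr encodes GMP reductase 1, which deaminates GMP to IMP. Its processed signal was 1121, 5114 and 21361 on LID_W_7w replicates 1, 2 and 3, against 244, 304 and 349 on LID_W_3w and 72, 56 and 66 on ND. On the log2 scale relative to the array's 75th percentile, these are levels of 0.50, 2.63 and 4.30 at 7 weeks, -2.78, -2.49 and -2.40 at 3 weeks and -4.49, -4.75 and -4.57 on ND. The 3 groups were fully apart, with every 7 week array above every 3 week array and every 3 week array above every ND array. Gmpr was well above background on all 9 arrays. The log2 fold change at 7 weeks was 7.08 ± 0.76 (SE, adjusted p = 0.00162), or 135-fold; with no scaling between arrays it was 6.27 and scaled to the spike-ins 3.19.

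Gmpr2, the other GMP reductase, catalyses the same reaction and did not pass. Its log2 levels were 0.77, 1.13 and 1.96 on LID_W_7w, 1.87, 2.5 and 2.28 on LID_W_3w and 1.90, 1.34 and 1.71 on ND. The 7 week arrays overlapped the ND arrays, with a log2 fold change of -0.36 ± 0.36 (adjusted p = 0.465). Whether the change of Gmpr differed from that of Gmpr2 was not tested, as these are levels of different probes.

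Ampd3, the AMP deaminase isoform of red cells, fell at 7 weeks. Its log2 levels were -0.81, -1.24 and -0.19 on LID_W_7w, 2.07, 1.85 and 2.15 on LID_W_3w and 1.91, 0.33 and 1.6 on ND. All 7 week arrays lay below all others, and ND replicate 2 was the lowest of the remaining 6. The log2 fold change at 7 weeks against ND was -2.03 ± 0.44 (adjusted p = 0.0112). Without ND replicate 1 it was -1.71 and the call ended (adjusted p = 0.0503).

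Cda, the cytidine deaminase that turns cytidine and deoxycytidine into their uridine forms, had a signal of 1172, 12929 and 20935 on LID_W_7w, 95, 115 and 82 on LID_W_3w and 195, 59 and 125 on ND. The log2 levels were 0.57, 3.97 and 4.27 at 7 weeks, -4.14, -3.89 and -4.49 at 3 weeks and -3.05, -4.66 and -3.65 on ND. The 3 week and ND arrays overlapped, and all 7 week arrays were far above both. On LID_W_3w, 2 of 3 arrays were well above background, and all 3 were in each other group. The log2 fold change at 7 weeks against ND was 6.72 ± 0.88 (adjusted p = 0.00238), or 105-fold.

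Gmpr and Cda also varied more among the 7 week arrays than most genes. Their SD was 1.90 and 2.06 on the log2 scale (n = 3), beside a median of 0.58 over all genes, and 5.56% and 4.21% of genes had an SD as large. Replicate 1 was the lowest for both. That array also had the smallest share of spots above background of the 9, at 45.15%, against 49.94% and 53.57% on LID_W_7w replicates 2 and 3. Without LID_W_7w replicate 1, Gmpr was at 8.07 and Cda at 7.90; without replicate 3 they were at 6.17 and 6.05, and both passed without each array in turn. The part of array quality in these values was not tested.

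Adk, the kinase that returns adenosine to the AMP pool, fell at 7 weeks. Its brighter probe had log2 levels of 3.77, 2.55 and 3.37 on LID_W_7w, 4.54, 4.77 and 5.05 on LID_W_3w and 5.21, 4.87 and 4.67 on ND. All 7 week arrays were below all others, and the log2 fold change against ND was -1.68 ± 0.35 (adjusted p = 0.01). The other Adk probe had 2.99, 0.62 and 1.93 on LID_W_7w, 3.38, 3.61 and 3.67 on LID_W_3w and 3.29, 2.09 and 2.29 on ND. By that probe the 7 week and ND arrays overlapped (-0.71 ± 0.56, adjusted p = 0.361 over all probes), and with the mean of both probes Adk did not pass (-1.20, adjusted p = 0.0719).

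Hprt, the recapture enzyme for hypoxanthine and guanine, had log2 levels of 5.95, 6.41 and 6.53 on LID_W_7w, 6.25, 6.24 and 6.42 on LID_W_3w and 7.01, 6.64 and 6.60 on ND. Every low iron array was below every ND array, but the log2 fold change of -0.46 ± 0.27 at 7 weeks did not pass (adjusted p = 0.216). Uck2, the uridine and cytidine kinase, was at 3.08, 4.20 and 4.67 on LID_W_7w, 2.52, 3.32 and 3.36 on LID_W_3w and 4.30, 3.91 and 3.98 on ND. Its 7 week arrays spanned the ND range (-0.08 ± 0.43, adjusted p = 0.897).

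Nt5c3 and Pnp gave bright probes, at 43.5% and 39.9% of the scanner's saturation value (geometric mean over the 9 arrays). Nt5c3, the pyrimidine nucleotidase, had log2 levels of 8.94, 7.99 and 8.48 on LID_W_7w, 7.64, 7.75 and 7.27 on LID_W_3w and 7.70, 8.08 and 7.96 on ND, and its 7 week change did not pass (0.56 ± 0.31, adjusted p = 0.193). Pnp, the phosphorylase that splits inosine and guanosine, had 8.81, 7.69 and 8.07 on LID_W_7w, 7.59, 7.70 and 7.55 on LID_W_3w and 7.82, 7.71 and 7.74 on ND (0.43 ± 0.31, adjusted p = 0.311). Both 7 week changes were below 0 with quantile normalization (-0.22 and -0.33) and lower than ND scaled to the spike-ins (-3.33 and -3.46). A dimmer Pnp probe was above background on 1 of 3 LID_W_7w arrays and on all arrays of the other groups, at -1.01 ± 0.88. Pnp2, the paralog next to Pnp, could share target RNA with its probes; it was at 0.26 ± 0.34 on the same log2 fold change scale.

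Ada, which deaminates adenosine, had log2 levels of -0.77, -0.20 and 0.38 on LID_W_7w, -0.15, 1.09 and 0.29 on LID_W_3w and -0.70, 0.24 and -0.52 on ND. The 3 groups overlapped, and the 7 week change was 0.13 ± 0.44 (adjusted p = 0.84).

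**Figure D2:**
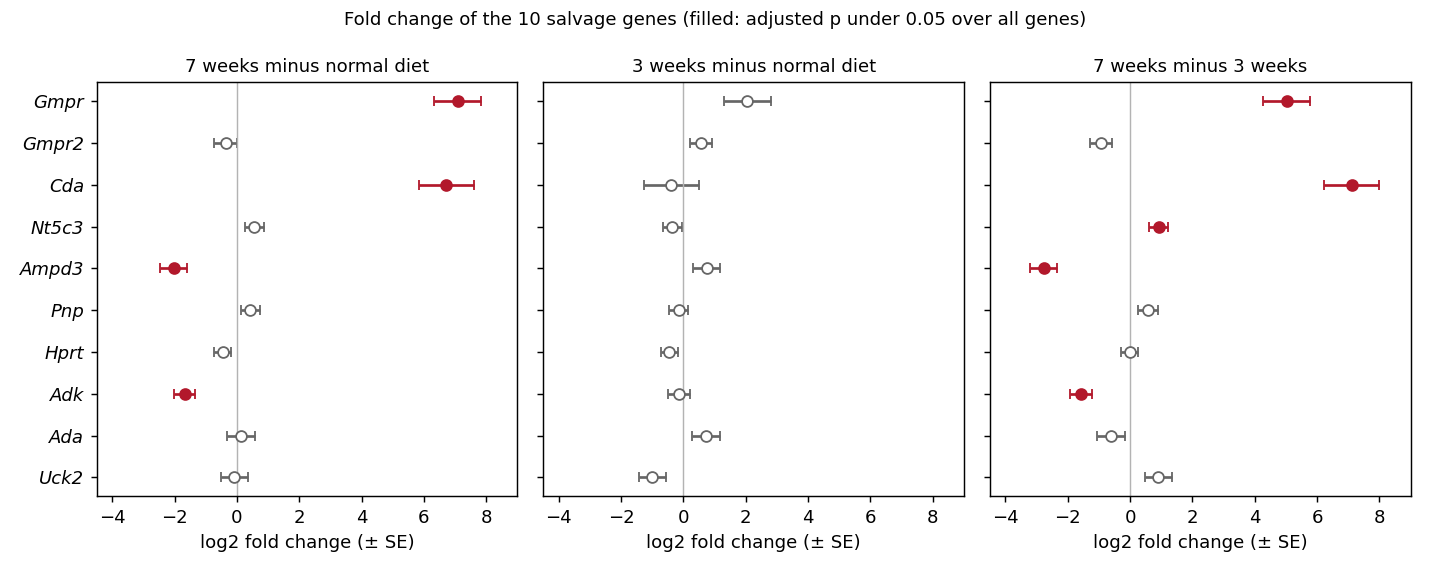
Log2 fold change (x axis, with the standard error of limma) of each member in the 3 comparisons; filled points passed at an adjusted p under 0.05 over all genes. At 7 weeks against normal diet Gmpr (7.08) and Cda (6.72) lie to the right and Ampd3 (-2.03) and Adk (-1.68) to the left; at 3 weeks no point is filled.

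After 3 weeks of low iron diet, no member passed against ND, while 11.4% of all genes did (3.52% higher and 7.88% lower). The median log2 fold change of the members was -0.14, beside -0.17 for all genes. In limma, 2 of the 10 members, Gmpr and Uck2, had an unadjusted p under 0.05, as did 4289 of the 14504 genes. The adjusted p was 0.112 for Gmpr (2.05 ± 0.76) and 0.158 for Uck2 (-1.0 ± 0.43). The groups did not overlap for 4 members, Gmpr, Uck2, Hprt (-0.45 ± 0.27) and Pnp (-0.15 ± 0.31), against 49.5% of all genes. The model pools the spread of all 9 arrays, and for Gmpr that spread was mostly of the 7 week arrays: its SD was 1.90 on LID_W_7w, 0.20 on LID_W_3w and 0.14 on ND. In a fit of the 6 arrays of these 2 groups alone, Gmpr (adjusted p = 0.00371) and Uck2 (adjusted p = 0.0355) both passed, among 30.7% of all genes. In the fit that left out LID_W_7w replicate 1 both also passed (adjusted p = 0.0105 for Gmpr and 0.042 for Uck2), and without LID_W_7w replicate 3 Gmpr did (adjusted p = 0.0348). With ND replicate 3 as the only control, no member and no gene passed, and 0 members and 1587 genes had an unadjusted p under 0.05.

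The other members had small differences at 3 weeks. Ampd3 was at 0.74 ± 0.44, Ada at 0.73 ± 0.44 and Gmpr2 at 0.57 ± 0.36, with adjusted p from 0.291 to 0.322. Cda was at -0.39 ± 0.88, Nt5c3 at -0.36 ± 0.31 and Adk at -0.13 ± 0.35. The second Adk probe was at 1.0 ± 0.56, of opposite sign to the brighter probe.

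**Figure D3:**
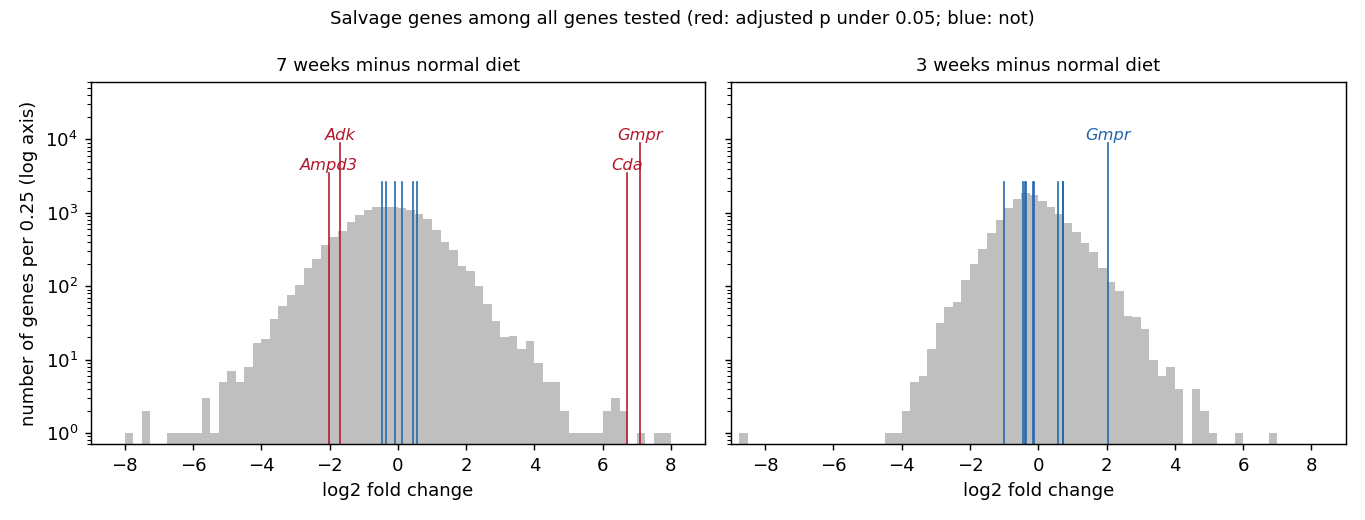
Number of genes (y axis, log scale) by log2 fold change (x axis) at 7 weeks and at 3 weeks against normal diet, with the 10 members as lines, red where the adjusted p is under 0.05. At 7 weeks Gmpr and Cda lie in the far right tail, and at 3 weeks Gmpr, at 2.05, is the member farthest from 0.

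Between 7 and 3 weeks of low iron diet, 5 of the 10 members differed, 3 higher and 2 lower, against 37.2% of all genes (17.5% higher and 19.6% lower). The groups did not overlap for 5 members, against 48.4% of all genes. Cda was higher at 7 weeks by 7.11 ± 0.88 (adjusted p = 0.00076), the 2nd largest change of all genes, and Gmpr by 5.03 ± 0.76 (adjusted p = 0.00157). Ampd3 (-2.77 ± 0.44, adjusted p = 0.00195) and Adk (-1.56 ± 0.35, adjusted p = 0.009) were lower; the second Adk probe had -1.70 ± 0.56. Nt5c3 passed as higher in the main scaling (0.92 ± 0.31, adjusted p = 0.0434), but its signal before scaling differed by -0.05, and with quantile normalization it was at -0.27 (adjusted p = 0.471). The other 5 did not pass, among them Gmpr2 (-0.93 ± 0.36, adjusted p = 0.0687) and Uck2 (0.91 ± 0.43, adjusted p = 0.123). Scaled to the spike-ins, Cda stayed higher at 7 weeks (3.48 ± 0.93, adjusted p = 0.00243), Gmpr did not pass (1.41 ± 0.86, adjusted p = 0.127), and the other 8 members were lower, Nt5c3 among them (-2.71 ± 0.53).

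The levels of Gmpr thus ordered as 7 weeks, 3 weeks and ND, with a call between 7 weeks and each other group (scaled to the spike-ins, against ND alone). For Cda, 7 weeks was highest, and 3 weeks and ND did not differ beyond their spread. For Ampd3 and Adk, 7 weeks was lowest, and 3 weeks and ND did not differ beyond their spread. The comparisons with ND share the same 3 ND arrays.

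Of all tested genes, those with the profile closest to a member over the 9 arrays were found by the root mean square difference of centred log2 levels. For Gmpr these were Tnfrsf13c (0.98), Fabp1 (1.02) and Arhgdig (1.10), beside a spread of 3.11 of Gmpr itself. For Cda they were Fabp1 (0.96), Gmpr (1.19) and Fabp5 (1.40), beside its own spread of 3.43. For Ampd3 they were Moap1 (0.16), Psmd14 (0.17) and Rab28 (0.20), and for Adk Acss2 (0.13), Mon2 (0.14) and Prnp (0.19).

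Markers of other marrow cells were measured beside these changes. The level of a list is the sum of its markers' signal in multiples of the array's 75th percentile. The 12 neutrophil markers summed to 376 to 590 on LID_W_7w, 302 to 520 on LID_W_3w and 224 to 647 on ND. At least 10 of them were above background on each array. The sum follows the brightest markers, and single markers went both ways. At 7 weeks against ND 1 passed as higher and 0 as lower (median log2 fold change -0.32). Between 7 and 3 weeks 2 were higher and 6 lower (median -1.75). The 10 monocyte and macrophage markers with a probe summed to 16.7 to 21.4 on LID_W_7w, 61.9 to 87.6 on LID_W_3w and 31.5 to 47.6 on ND, with 8 to 10 above background at 7 weeks. The 9 T and NK cell markers summed to 22.7 to 38.5 on LID_W_7w, 17.8 to 24.7 on LID_W_3w and 18 to 20.3 on ND, with 6 to 7 above background at 7 weeks. The 10 B lineage markers summed to 4.93 to 16.8 on LID_W_7w, 13 to 29.4 on LID_W_3w and 8.46 to 13.6 on ND. The 6 megakaryocyte markers summed to 6.51 to 38.9 on LID_W_7w, 21.1 to 64.9 on LID_W_3w and 18 to 51.3 on ND. The 7 mast cell, basophil and eosinophil markers summed to 0.552 to 0.719 on LID_W_7w, 0.59 to 24.5 on LID_W_3w and 13.4 to 24.1 on ND, and Ms4a2 was above background on no array. Of these lists, T and NK cells alone had every 7 week sum above every ND sum. The markers of that list did not move together. Of the 8 tested, 1 passed as higher at 7 weeks against ND and 0 as lower. Cd4 was at 4.57, 3.29 and 3.02 on LID_W_7w and 1.8, 2.15 and 1.88 on ND. Lck was at 2.72, 1.4 and 2.51 on LID_W_7w and 3.28, 3.08 and 3.15 on ND. The part of T and NK cells in the rise of Gmpr and Cda was not tested. The 10 erythroblast markers summed to 2610 to 4040 on LID_W_7w, 1830 to 1950 on LID_W_3w and 2020 to 2160 on ND.

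The lists below are given relative to the 75th percentile. Their counts stand beside 10.7% of all genes higher and 18.7% lower at 7 weeks against ND. The shares of all genes were 3.52% higher and 7.88% lower at 3 weeks, and 17.5% and 19.6% between 7 and 3 weeks. Whether a list differed from these shares was not tested. Every gene named in them as higher at 7 weeks than ND or 3 weeks has a fitted log2 fold change smaller than the spike-in offset, and so lies below 0 scaled to the spike-ins. Of the 13 genes of de novo purine synthesis, 6 were lower than ND at 7 weeks and none higher. Their median log2 fold change was -1.67, beside -0.27 for all genes. Of the LID_W_7w arrays, replicate 1 was the lowest for every gene of this list but Prps2 and Adssl1. Gart was at -1.44, 1.58 and 1.33 on replicates 1, 2 and 3, and Atic at -4.9, 1.49 and 2.28. The part of replicate 1 in the list median was not tested. Prps2, which makes the ribose donor PRPP, was at -3.21 ± 0.61 (adjusted p = 0.00725) and above background on 1 of 3 LID_W_7w arrays. Paics, an enzyme of the middle of the pathway, was at -2.73 ± 0.86, with log2 levels of 1.5, 4.99 and 5.42 on LID_W_7w and 6.85, 6.47 and 6.76 on ND. Adss, the first step from IMP to AMP, was at -2.51 ± 0.29 (adjusted p = 0.00181) and its isoform gene Adssl1 at -1.99 ± 0.63. At 3 weeks 1 of the 13 passed, Pfas (-1.31 ± 0.26), and 7 against 3 weeks had 1 higher and 7 lower, led by Prps2 (-3.37 ± 0.61), Adssl1 (-3.12 ± 0.63), Adsl (-2.90 ± 0.43) and Gart (-2.37 ± 0.70). No gene of 5 in de novo pyrimidine synthesis passed in any comparison. At 7 weeks Umps, which completes UMP, was at -1.87 ± 1.19 and Ctps, which makes CTP, at -1.72 ± 0.84. Both values rest mostly on LID_W_7w replicate 1. On LID_W_7w replicates 1, 2 and 3 Umps was at -0.34, 4.96 and 4.8, and on ND at 5.13, 5.2 and 4.68. Ctps was at 0.63, 4.13 and 4.39 on LID_W_7w and 5.17, 4.62 and 4.51 on ND. The values of largest size among these 5 were Umps (-1.06 ± 1.19) and Cad (-0.71 ± 0.33) at 3 weeks, and Ctps (-1.04 ± 0.84) and Umps (-0.81 ± 1.19) between 7 and 3 weeks.

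Of the 11 other salvage enzymes tested, 5 were lower than ND at 7 weeks and 1 higher (median -0.48). Upp1, the uridine phosphorylase, rose (2.39 ± 0.41, adjusted p = 0.00507), with log2 levels of 1.30, 1.12 and 0.19 on LID_W_7w and -1.91, -1.16 and -1.49 on ND. The deoxynucleoside kinases Dck (-2.21 ± 0.26, adjusted p = 0.00198) and Dguok (-2.16 ± 0.29, adjusted p = 0.00242) fell, as did Uprt (-1.53 ± 0.51), which was above background on no LID_W_7w array and thus at least 1.03-fold lower. At 3 weeks Dguok alone of the 11 passed (-1.23 ± 0.29). Between 7 and 3 weeks 1 was higher and 3 lower, Upp1 (1.47 ± 0.41), Dck (-2.17 ± 0.26), Uckl1 (-1.01 ± 0.34) and Dguok (-0.93 ± 0.29).

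Breakdown enzymes had 3 of 13 lower and none higher at 7 weeks against ND: Upb1, a late enzyme of pyrimidine catabolism (at least 1.61-fold lower), the purine nucleotidase Nt5c2 (-1.92 ± 0.39) and Adal (-0.98 ± 0.32). At 3 weeks Dpys, also of pyrimidine catabolism, fell (-2.46 ± 0.36) and Nt5m, a mitochondrial nucleotidase, rose (1.32 ± 0.28). Between 7 and 3 weeks 2 were higher and 5 lower, led by Upb1 (at least 2.97-fold lower), Dpys (2.65 ± 0.36), Nt5c2 (-2.57 ± 0.39) and Xdh (-2.19 ± 0.72). Nucleoside transporters had 1 of 7 higher and 1 lower at 7 weeks, Slc29a3, a transporter of intracellular membranes (1.34 ± 0.34), and Slc29a1, the main plasma membrane transporter (-1.89 ± 0.56). At 3 weeks Slc29a3 rose (2.21 ± 0.34), and Slc29a2 (at least 1.95-fold lower) and Slc28a3 (-1.28 ± 0.35) fell. Between 7 and 3 weeks 3 of the 7 were higher: Slc29a2 (at least 3.18-fold), Slc28a3 (2.0 ± 0.35) and Slc28a1 (0.86 ± 0.24).

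Nucleotide kinases had 1 of 11 higher and 3 lower at 7 weeks, namely Ak1, the cytosolic adenylate kinase of red cells (1.53 ± 0.50), and Cmpk2 (-2.65 ± 0.72), Ak3 (-2.12 ± 0.42) and Ak6 (-1.79 ± 0.36). At 3 weeks Ak3 fell (-1.63 ± 0.42), and between 7 and 3 weeks Ak1 (2.58 ± 0.50) and Nme2 (1.78 ± 0.49) were higher. None of 6 genes of deoxynucleotide synthesis passed, with Rrm1, the large subunit of ribonucleotide reductase, at -1.15 ± 0.42 at 7 weeks and -0.71 ± 0.42 at 3 weeks, and Dut at -0.76 ± 0.70 between 7 and 3 weeks. Of 12 red cell enzyme and late maturation genes, 2 were higher at 7 weeks against ND, Bpgm (1.04 ± 0.31) and Slc4a1 (0.93 ± 0.26), at 36.3% and 58.4% of the saturation value. At 3 weeks Hk1 fell (-1.30 ± 0.23), and between 7 and 3 weeks 4 were higher, led by Hk1 (1.55 ± 0.23), Slc4a1 (1.16 ± 0.26) and Trim58 (1.16 ± 0.38).

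**Figure D4:**
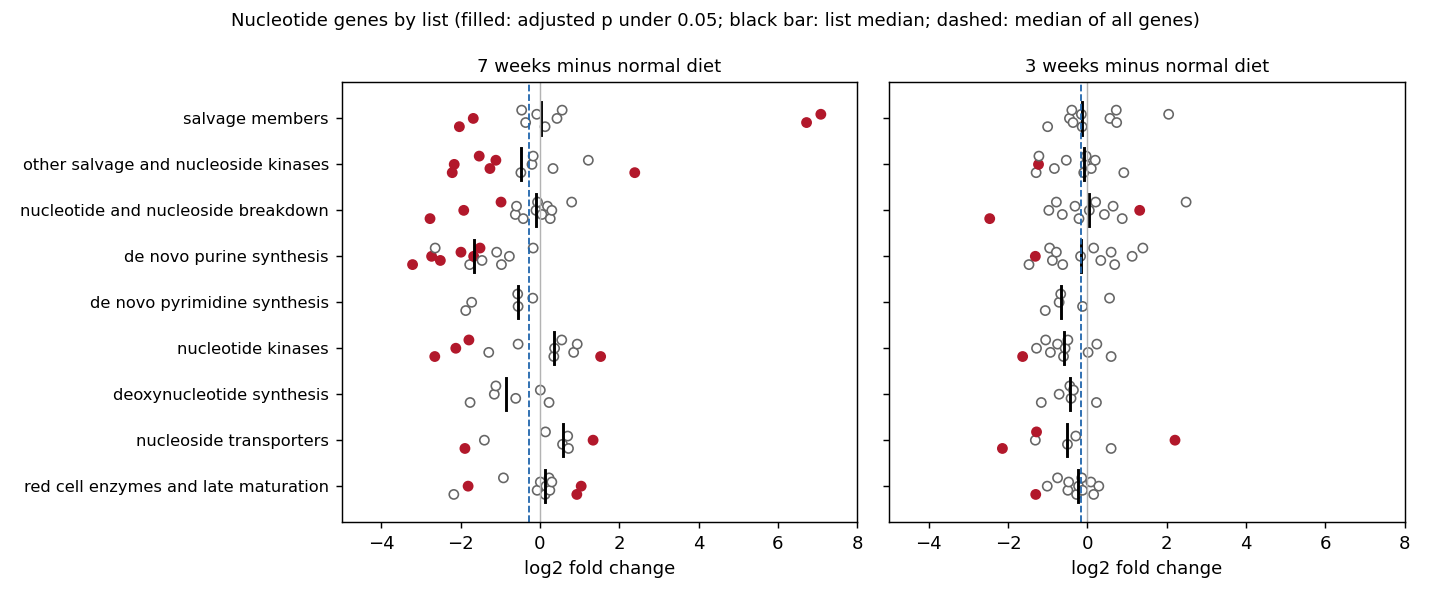
Log2 fold change (x axis) of every tested gene of the salvage members and of 8 other lists of nucleotide and red cell genes (y axis), at 7 weeks and at 3 weeks against normal diet; filled points passed, black bars are list medians and the dashed line is the median of all genes. At 7 weeks the de novo purine synthesis median lies at -1.67, left of the median of all genes at -0.27. LID_W_7w replicate 1 was the lowest array of its group for most genes of that list.

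**Figure D5:**
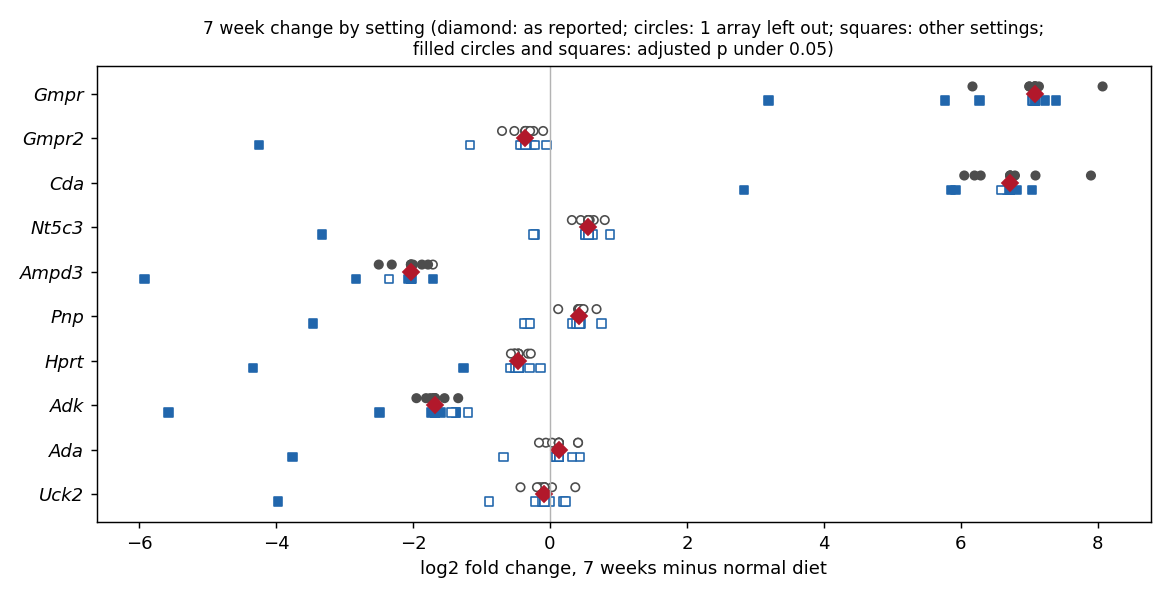
Log2 fold change of each member at 7 weeks against normal diet (x axis). Diamonds are the values as reported, circles have 1 array left out and squares are the other settings. Filled circles and squares passed, while diamonds are drawn filled whether or not the gene passed. Scaled to the spike-ins (leftmost square of each gene), Gmpr is at 3.19 and Cda at 2.83 and the other 8 lie at -3.33 or lower; otherwise Gmpr stays between 5.77 and 8.07 and Cda between 5.86 and 7.90, while Nt5c3, Pnp, Ada and Uck2 have points on both sides of 0.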

How the data were processed

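Total RNA of the sorted cells was amplified and labelled with Cy3, per the labels' protocols. The deposited intensity values are the processed signals of Agilent Feature Extraction 10.7.3.1, per the file headers, which record background subtraction and spatial detrending inside an array; arrays were not yet scaled to each other. The deposited log2 values of the series table are centred on each probe's median, as judged from the scanner values (r from 0.997 to 0.999); their scaling between arrays is not given in the sources used here. Control spots and spots marked as outliers were left out, and no spot was saturated. The log2 signal minus the array's 75th percentile was averaged per probe. Probes were named by RefSeq accession through a GRCm38.p6 table (26413 of 55681), while the array design was built on mm9. Tested probes were well above background on each of the 3 arrays of 1 or more groups, and the brightest probe stood for a gene. A linear model over 9 arrays was fitted with limma 3.58.1 in R 4.3.3, two-sided, with Benjamini-Hochberg adjustment over 14504 genes and a threshold of 0.05; it was tested on simulated data. A p-value measures a change against the spread within groups, pooled over all 9 arrays and moderated across genes by limma. Each group has 3 samples, which the design text calls biological replicates. Spread between slides is not part of it, since each group lies on its own slide. The number of arrays limits the precision. For a gene with no array of a group well above background, the fold is a bound against the lowest signal well above background. Members, gene lists and motifs were chosen with earlier results of these data known. Named from each other list were up to 4 genes with the largest change among those that passed in a comparison, or up to 2 where none did; the results of 2 listed genes are not reported here. Alternatives covered background correction, scaling, filter, probe choice, the series table, the arrays in the fit and the replicate number.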

Additional observations from a re-analysis of the deposited data

Results flagged for a closer look

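For 5 members the change from normal diet differed between the 2 times on the low iron diet, by the test of 7 against 3 weeks. There were 10 members, and 37.2% of all genes passed in the same test. The 7 week change exceeded the 3 week change by 7.11 for Cda and by 5.03 for Gmpr on the log2 scale. The difference was -2.77 for Ampd3 and -1.56 for Adk, both lower at 7 weeks. For Nt5c3 the difference was 0.92, and it did not pass in 8 of the 9 fits that left out 1 array. Scaled to the spike-ins, the differences of Cda, Ampd3 and Adk kept direction and call, that of Gmpr did not pass (1.41), and that of Nt5c3 was -2.71. All 5 rest on arrays of different slides, so slide and time on the diet cannot be told apart.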

How the results depend on the processing

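Of 647 member values recomputed under the alternatives, 40 changed sign. Of 191 recomputed values of members that passed as reported, 170 had the same direction and call, 18 had the same direction without passing and 3 changed sign, all of Nt5c3 between 7 and 3 weeks. Of the rest, 19 passed under the alternative alone. Over the fits that left out 1 array, members called ranged from 3 to 4 at 7 weeks against ND, from 0 to 2 at 3 weeks and from 4 to 5 between 7 and 3 weeks; all genes called ranged from 1739 to 5210, from 199 to 3503 and from 3543 to 6488, beside 4277, 1653 and 5390 as reported. With 1 array left out, Ada at 7 weeks ranged from -0.16 to 0.41, Uck2 at 7 weeks from -0.43 to 0.37, Adk at 3 weeks from -0.26 to 0.02 and Hprt between 7 and 3 weeks from -0.12 to 0.17. At 7 weeks against ND, the count of all genes was 7100 with no scaling between arrays, 6939 with no filter on dim probes, 2848 with only the 6 arrays compared and 1 with ND replicate 3 as the only control, where the members called were 0. At 3 weeks it was 966 with no scaling, 4435 with the 6 arrays (2 members) and 0 with ND replicate 3 as the only control. These fits on fewer arrays hold fewer samples; the cause of the other changes was not tested. With quantile normalization the sign turned at 3 weeks for Nt5c3 (0.05), Pnp (0.29), Hprt (0.26) and Adk (0.32), at 7 weeks for Nt5c3 (-0.22), Pnp (-0.33) and Uck2 (0.20), and between 7 and 3 weeks for Nt5c3 (-0.27) and Pnp (-0.62). With no scaling it turned at 3 weeks for Pnp (0.01) and Adk (0.03), at 7 weeks for Nt5c3 (-0.24), Pnp (-0.37) and Ada (-0.68), and between 7 and 3 weeks for Nt5c3 (-0.05), Pnp (-0.39) and Uck2 (-0.05). Scaled to the spike-ins, an alternative chosen after seeing the data, 10 members and 14324 genes passed at 7 weeks against ND (12 higher and 14312 lower), 0 members and 293 genes at 3 weeks (76 and 217), and 9 members and 13981 genes between 7 and 3 weeks (15 and 13966), with medians of all genes of -4.15, -0.43 and -3.76. The sign then turned at 7 weeks for Nt5c3 (-3.33), Pnp (-3.46) and Ada (-3.76), and between 7 and 3 weeks for Nt5c3 (-2.71), Pnp (-3.05) and Uck2 (-2.71). With the 75th percentile of probes above background on all arrays it turned for Pnp (0.10) and Adk (0.11) at 3 weeks, Uck2 (0.23) at 7 weeks and Hprt (0.06) between 7 and 3 weeks. With the mean over probes it turned for Pnp (0.28) and Adk (0.43) at 3 weeks, Pnp (-0.29) at 7 weeks and Pnp (-0.57) between 7 and 3 weeks, and for Adk at 3 weeks it was 0.07 with normexp on the median signal, chosen after seeing the data, and 0.12 with ND replicate 3 as the only control. No scaling moved the median of all genes to -1.07 at 7 weeks (-0.27 as reported) and to -1.09 between 7 and 3 weeks (-0.13). The split of higher and lower calls at 7 weeks was 1558 and 2719 as reported, 2195 and 1730 with the percentile of probes above background and 454 and 6646 with no scaling. At 3 weeks it was 510 and 1143 as reported, 616 and 808 with quantile normalization, 702 and 523 with the percentile of probes above background and 492 and 474 with no scaling, and between 7 and 3 weeks 2545 and 2845 as reported and 826 and 6804 with no scaling. The replicate numbers did not pair the samples (correlation of deviations from -0.17 to 0.29), and with the replicate block 4 members passed at 7 weeks, 0 at 3 weeks and 4 between 7 and 3 weeks (4063, 1401 and 5244 of all genes). Normexp on the mean signal and the slide as a block were not run, the first because the files used here hold a median signal in its place, the second because each group lies on its own slide. With probes above background on all 9 arrays, Cda had no value. Dim signals, as for Gmpr on ND, Cda at 3 weeks and on ND and Pnp's second probe, limit the precision of low levels.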
